A study of Homo sapiens with 6 samples.

Results

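The 75 genes described here are protein-coding genes whose RNA was nearly lost in a SOX2 knockout of the human prostate cancer cell line CWR-R1. A gene was included when its mean over the 3 Control libraries was at least 5 CPM (the share of a library's total assigned to a gene, scaled so that each library adds up to 1000000), its mean over the 3 SOX2-KO libraries was at most 0.25 times that value, and the 6 values did not overlap between the groups. SOX2 itself and 10 other genes (EPHB3, MLPH, TMTC1, PKP1, MAOA, ARMCX3, IGFBPL1, ALDH1A1, ASCL2 and ABCC4) were left out by name. Of 10943 protein-coding genes at 5 CPM or more in Control, 85 met the thresholds (0.777%), and the 75 are what remained of them. Of the 11 genes left out by name, 10 were among the 85, and ABCC4 was not. In the same 10943 genes, the groups failed to overlap with SOX2-KO lower for 42.1%, so that lack of overlap alone was common. Since these same 6 values chose the genes, their levels are given as a description with no test.

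SOX2 is a transcription factor of the high-mobility-group family, which bends DNA on binding and maintains stem cell identity in embryonic and neural progenitors. In the prostate it is found in basal cells and in part of castration-resistant and neuroendocrine tumours. CWR-R1 is a castration-resistant line that was derived from a xenograft of human prostate cancer. The Control cells are labelled as untreated and SOX2 positive, and the SOX2-KO cells as SOX2 negative. No other agent or allele is named for either group. The sources used here do not give the method of the knockout, its clonal origin or the origin of the replicates, so the spread between replicates may be technical. If the SOX2-KO cells come from 1 clone, differences between clones cannot be told apart from the knockout.

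SOX2 RNA was 55.7, 54.3 and 55.5 CPM in Control and 4.70, 4.56 and 3.83 CPM in SOX2-KO, in the order of the replicate numbers, which is kept below. Its mean fell from 55.1 ± 0.771 to 4.36 ± 0.467 CPM (SD, n = 3), or to 7.91%, with p = 0.1 by an exact permutation test (two-sided), which is the least that 6 libraries in groups of 3 can give. All 9 luminal prostate markers were present in both groups, with a sum of 2114 to 2152 CPM in Control and 2753 to 2964 CPM in SOX2-KO. None of the 5 basal or 4 leukocyte markers was among the genes analysed here. Neuroendocrine RNA was represented by SYP alone of 7 markers (5.70 to 6.29 against 3.15 to 4.17 CPM). Of 6 stromal markers COL1A1 and LUM were measured, with a sum of 7.28 to 8.30 against 2.54 to 3.34 CPM. Of 4 endothelial markers only VWF was, at 2.96 to 4.08 against 19.9 to 21.2 CPM. The estimated depth was 20717790 to 25739760 reads per library, at which 3 reads correspond to 0.117 to 0.145 CPM, a floor for counting error only.

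The label nearly lost fits the genes to different degrees. The median gene kept 16.9% of its Control level. There were 3 genes below 5%, 17 below 10% with those 3 included, 31 from 10% to 20% and 27 from 20% to 25%. Together the 75 genes made up 0.253%, 0.248% and 0.254% of the Control libraries and 0.0472%, 0.0453% and 0.0467% of the SOX2-KO libraries, so the fall of their sum was alike in the 3 knockout libraries. In these bulk libraries, fewer cells that express a gene and less of its RNA per cell cannot be told apart. The opposite pattern, a SOX2-KO mean of at least 5 CPM with Control at most 0.25 times that, held for 48 protein-coding genes.

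**Figure D1:**
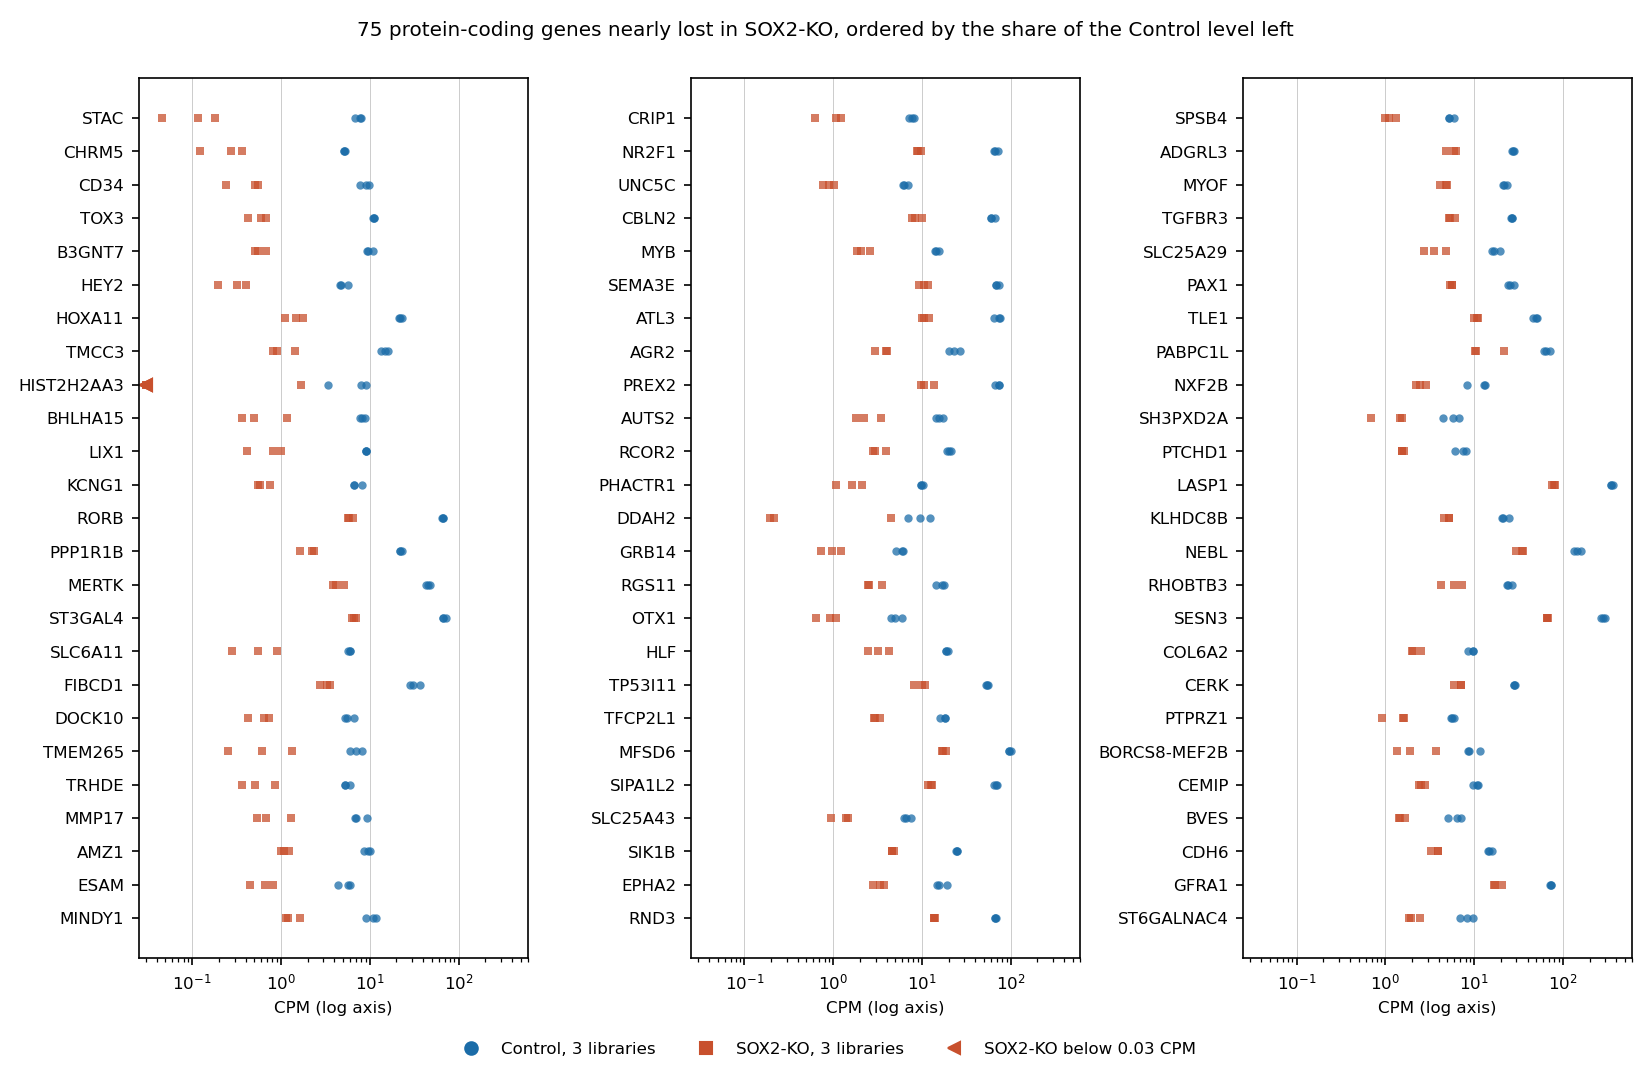
CPM on a log axis for each of the 75 genes in the 3 Control libraries (circles) and the 3 SOX2-KO libraries (squares), ordered from the gene with the lowest share left, STAC at 1.53%, to ST6GALNAC4 at 25.0%. The 2 lowest SOX2-KO values of HIST2H2AA3 lie off the axis and are drawn as triangles at its left edge, and DDAH2 and PABPC1L each have 1 SOX2-KO library far above the other 2.

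The regions just before the genes' starts were read from RefSeq (GRCh38.p14), as 250 bases before and 50 bases after each start, for the 60 of the 75 genes with an entry. RefSeq starts can differ from those of GENCODE given with the levels, as the MFSD6 and DDAH2 starts do. Motif positions here are relative to the RefSeq starts only. The SOX core motif CATTGT, searched on both strands, was found in 2 of the 60 (3.33%) and in 5.75% of 9083 promoters of protein-coding genes at 5 CPM or more in Control. The longer form CATTGTT, which contains the core, was found in none of the 60 and in 1.55% of the 9083. A match describes the letters only, and windows of 300 bases leave out distant elements. The 2 promoters with the core are shown because they are the only ones among the 60 that hold the motif, with the match in capitals, 5′ to 3′ on the strand of the gene. In MFSD6 (chr2:190407326-190407625, plus strand) the motif occurs at positions -120 and -86 relative to the start. In DDAH2 (chr6:31730214-31730513, minus strand) it lies on the opposite strand at position 9, as ACAATG.
MFSD6: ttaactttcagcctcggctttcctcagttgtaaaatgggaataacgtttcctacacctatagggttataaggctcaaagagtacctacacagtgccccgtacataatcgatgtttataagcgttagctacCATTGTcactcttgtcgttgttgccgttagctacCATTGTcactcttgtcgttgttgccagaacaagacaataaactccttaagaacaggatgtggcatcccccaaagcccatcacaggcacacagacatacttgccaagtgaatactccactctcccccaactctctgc
DDAH2: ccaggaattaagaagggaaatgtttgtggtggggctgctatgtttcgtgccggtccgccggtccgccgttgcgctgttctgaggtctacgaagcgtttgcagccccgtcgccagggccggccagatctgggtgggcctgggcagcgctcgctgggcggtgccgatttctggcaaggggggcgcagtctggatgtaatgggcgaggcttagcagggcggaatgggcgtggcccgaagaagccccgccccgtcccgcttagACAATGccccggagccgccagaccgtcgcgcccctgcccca
The MFSD6 motif lies in a stretch that is repeated within the window.

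The letters TATAAA, on either strand and at any position of the window, were found in 8 of the 60 promoters (13.3%), against 4.66% of the 9083. The position of a TATA box was not required, and the shares were not tested against each other. These 8 were CEMIP, COL6A2, HIST2H2AA3, HLF, MFSD6, PHACTR1, RHOBTB3 and RND3. Median GC content was 70% in the 60 and 65.7% in all, and the median ratio of observed to expected CG dinucleotides was 0.818 against 0.855. A ratio of at least 0.6, a usual mark of a CpG island, was present in 52 of the 60 (86.7%) and in 86.9% of all, so most of the lost genes start in CG-rich sequence, as most genes of the background do. The promoters of STAC, the gene with the lowest share left, and of the semaphorin gene SEMA3E are shown as a CG-rich and a CG-poor start, with CG in capitals. The STAC window (chr3:36380254-36380553, plus strand) holds 34 CG and the SEMA3E window (chr7:83649090-83649389, minus strand) 6.
STAC: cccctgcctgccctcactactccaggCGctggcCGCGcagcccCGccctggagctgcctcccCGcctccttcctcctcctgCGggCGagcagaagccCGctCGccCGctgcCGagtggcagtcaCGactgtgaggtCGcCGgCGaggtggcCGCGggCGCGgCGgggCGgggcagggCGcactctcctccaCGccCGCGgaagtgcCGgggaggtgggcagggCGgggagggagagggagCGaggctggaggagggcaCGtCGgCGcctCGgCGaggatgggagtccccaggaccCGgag
SEMA3E: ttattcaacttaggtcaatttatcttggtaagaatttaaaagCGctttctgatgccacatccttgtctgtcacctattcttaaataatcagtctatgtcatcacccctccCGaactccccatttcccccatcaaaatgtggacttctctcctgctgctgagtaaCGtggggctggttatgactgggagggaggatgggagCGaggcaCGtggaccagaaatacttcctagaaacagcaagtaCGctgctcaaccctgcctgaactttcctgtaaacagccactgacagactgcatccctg
The observed to expected ratios were 0.77 for STAC and 0.36 for SEMA3E.

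By function, 15 of the 75 genes encode cell surface proteins, 15 intracellular signalling proteins, 14 regulators of transcription, 6 proteins of the cytoskeleton or of membrane shape, 5 secreted or secretory pathway proteins, 5 channels or transporters and 3 enzymes of glycan synthesis, with 12 others. The classes were assigned by hand from textbook function after the names were known. The median share left was 14.0% for cell surface proteins, 15.3% for transcription, 15.7% for secreted proteins, 18.0% for channels and transporters, 18.4% for signalling and 21.6% for the cytoskeleton class. The ranges overlapped widely, from 5.12% to 21.7% in the transcription class and from 1.53% to 23.7% in the signalling class.

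**Figure D2:**
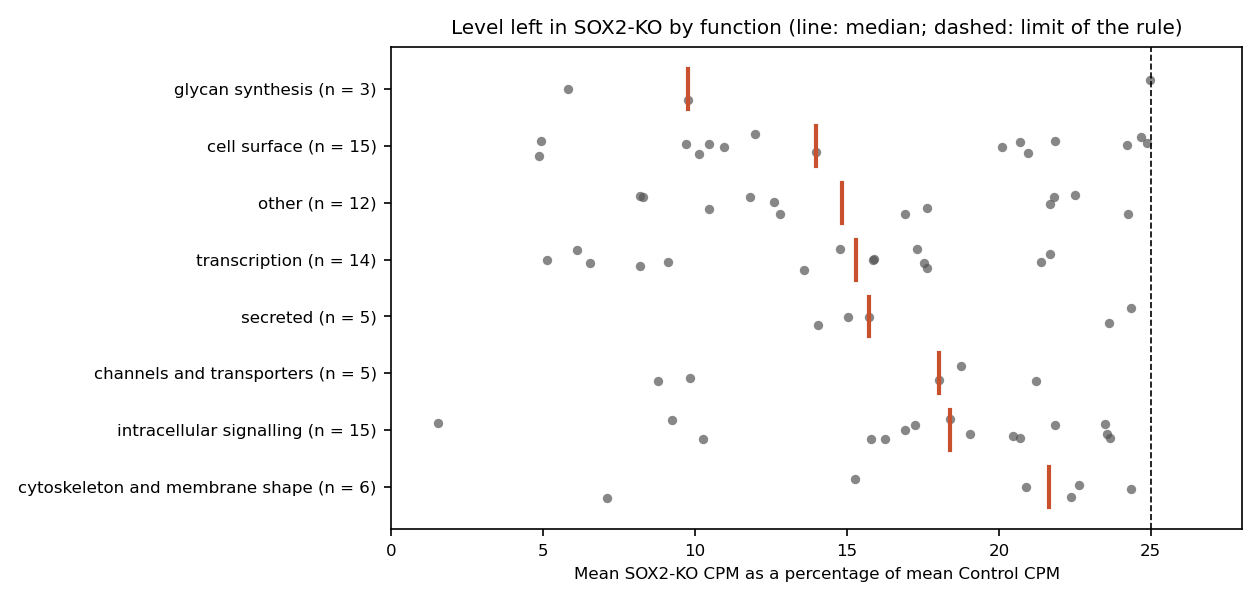
Share of the Control mean CPM left in SOX2-KO for each of the 75 genes (points), grouped by function, with the class median as a line and the limit of the rule at 25% dashed. The classes overlap, and only the 3 glycan enzymes have a median below 10%, at 9.75%.

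The transcription class holds DNA-binding factors of development and their cofactors. TOX3, an HMG-box nuclear protein (chr16:52438005-52547802), was 10.8, 11.1 and 11.2 CPM in Control and 0.684, 0.589 and 0.427 CPM in SOX2-KO. HEY2, a basic helix-loop-helix repressor downstream of Notch (chr6:125747664-125761269), was 4.62, 4.70 and 5.74 CPM in Control and 0.319, 0.408 and 0.194 CPM in SOX2-KO. Their means fell to 5.12% and 6.11%, and in both genes the highest SOX2-KO value was more than 10 times below the lowest Control value. HOXA11, a homeobox factor of the limb and reproductive tract (chr7:27181510-27185223), was 23.1, 21.9 and 21.5 CPM in Control and 1.78, 1.10 and 1.48 CPM in SOX2-KO, or 6.55% left. BHLHA15, also called MIST1, a factor of secretory cells (chr7:98211427-98212979), was 7.83, 8.85 and 8.11 CPM in Control and 0.364, 0.498 and 1.17 CPM in SOX2-KO, or 8.19% left. RORB, an orphan nuclear receptor of retina and brain (chr9:74497365-74693177), was 66.5, 65.0 and 67.5 CPM in Control and 6.52, 5.89 and 5.70 CPM in SOX2-KO, or 9.10% left. The RORB groups stood about 10 times apart in every pairing of libraries. BHLHA15 rested more on 1 library: without SOX2-KO replicate 3 the log2 ratio of its means was -4.26, against -3.61 with it.

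The other 9 transcription genes kept more. NR2F1, a second orphan nuclear receptor, kept 13.6% (from 67.9 ± 4.32 to 9.21 ± 0.449 CPM), and MYB, a factor of progenitor cells, kept 14.8% (from 14.7 ± 0.669 to 2.18 ± 0.382 CPM). AUTS2, a nuclear protein associated with Polycomb complexes, kept 15.8%. RCOR2, a corepressor of the REST complex (chr11:63911221-63916844), was 19.4, 21.4 and 19.9 CPM in Control and 2.96, 3.90 and 2.80 CPM in SOX2-KO, or 15.9% left. The homeobox gene OTX1 kept 17.3% and the paired-box gene PAX1 21.4%. The leucine zipper factor HLF kept 17.5%, and TFCP2L1, a factor of naive pluripotency in the mouse, 17.6%. TLE1, a Groucho corepressor without a DNA-binding domain of its own, kept 21.7% (from 48.9 ± 2.34 to 10.6 ± 0.451 CPM).

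Receptors and adhesion molecules of the cell surface formed a class of 15. CHRM5, a muscarinic acetylcholine receptor (chr15:33968720-34067457), was 5.32, 5.12 and 5.15 CPM in Control and 0.365, 0.273 and 0.121 CPM in SOX2-KO. CD34, a sialomucin of blood stem cells and endothelium (chr1:207880972-207911402), was 7.81, 9.79 and 9.06 CPM in Control and 0.515, 0.557 and 0.240 CPM in SOX2-KO. CHRM5 and CD34 kept 4.87% and 4.92%, and in both the lowest value was that of SOX2-KO replicate 3. MERTK, a receptor tyrosine kinase for the uptake of dying cells (chr2:111898479-112029561), was 45.7, 47.3 and 42.9 CPM in Control and 3.87, 4.17 and 5.13 CPM in SOX2-KO, or 9.69% left. FIBCD1, a receptor that binds acetylated sugars such as chitin (chr9:130902438-130939286), was 36.5, 28.2 and 30.5 CPM in Control and 3.60, 3.26 and 2.76 CPM in SOX2-KO, or 10.1% left. GFRA1, the co-receptor that presents the growth factor GDNF to the kinase RET (chr10:116056925-116273467), was 73.3, 73.8 and 71.5 CPM in Control and 20.3, 16.7 and 17.3 CPM in SOX2-KO, or 24.9% left. GFRA1 was thus close to the limit of the rule, with groups that still lay far apart.

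Ectoenzymes on the cell surface were TRHDE, which degrades thyrotropin-releasing hormone (10.5% left), and the metalloproteinase MMP17 (10.9% left, from 7.65 ± 1.38 to 0.836 ± 0.392 CPM). ESAM, an adhesion molecule of endothelial junctions, kept 11.98%. CD34 and ESAM are thus both genes of endothelial cells that fell, while the endothelial marker VWF rose and PECAM1, CDH5 and KDR were not among the genes analysed here. The remaining receptors are the netrin receptor UNC5C (14.0%), the ephrin receptor EPHA2 (20.1%), the latrophilin ADGRL3 (20.7%), the TGF-beta co-receptor TGFBR3 (20.9%), the Patched-like protein PTCHD1 (21.8%), the receptor phosphatase PTPRZ1 (24.2%) and the cadherin CDH6 (24.7%). EPHA2 went from 16.5 ± 2.35 to 3.32 ± 0.489 CPM and TGFBR3 from 26.4 ± 0.0741 to 5.53 ± 0.419 CPM. Control libraries were above SOX2-KO libraries in each, as the rule required.

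The secreted and secretory pathway genes kept between 14.0% and 24.3%. CBLN2, a synapse organiser of the cerebellin family, went from 62.1 ± 3.57 to 8.72 ± 1.20 CPM. SEMA3E, a semaphorin that repels growing axons and vessels through plexin receptors, went from 70.2 ± 2.69 to 10.6 ± 1.18 CPM. AGR2, a disulfide isomerase of the endoplasmic reticulum needed for mucin production in the mouse gut, went from 23.2 ± 3.38 to 3.65 ± 0.609 CPM. COL6A2, a chain of collagen VI, kept 23.6%, and CEMIP, which takes part in hyaluronan breakdown, kept 24.3%.

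STAC, an adaptor that binds voltage-gated calcium channels (chr3:36380344-36548007), lost the largest share of its RNA of the 75. It was 6.82, 7.90 and 7.67 CPM in Control and 0.0456, 0.181 and 0.117 CPM in SOX2-KO, so that 1.53% was left, with a 95% exact interval for counting error of 0.658% to 3.04%. The first of its SOX2-KO libraries lay below the 3-read floor. PPP1R1B, an inhibitor of protein phosphatase-1 known from dopamine-responsive neurons (chr17:39626740-39636626), was 21.9, 22.2 and 23.1 CPM in Control and 2.23, 1.63 and 2.33 CPM in SOX2-KO, or 9.22% left. DOCK10, an exchange factor for small GTPases (chr2:224765090-225042445), was 5.31, 6.60 and 5.60 CPM in Control and 0.640, 0.728 and 0.427 CPM in SOX2-KO, or 10.3% left. PREX2, an exchange factor for the GTPase Rac (chr8:67952118-68237030), was 66.8, 72.8 and 74.4 CPM in Control and 13.5, 9.84 and 10.4 CPM in SOX2-KO, or 15.8% left. SESN3, a stress-responsive sestrin that restrains mTORC1 (chr11:95165513-95232541), was 271, 285 and 300.4 CPM in Control and 68.8, 66.9 and 66.0 CPM in SOX2-KO, or 23.6% left. In SESN3 the SOX2-KO values lay within a few CPM of each other.

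Genes of GTPase-like proteins in this class were RND3, which lacks GTP hydrolysis (20.5% left, from 67.3 ± 0.655 to 13.8 ± 0.230 CPM), and RHOBTB3 (23.5%). GRB14, an adaptor that inhibits the insulin receptor, kept 16.9%. Regulators of other GTPases were RGS11, which speeds GTP hydrolysis by G proteins (17.2%), and SIPA1L2, a Rap-directed one (18.4%, from 67.3 ± 2.34 to 12.4 ± 0.571 CPM). PHACTR1, an actin and phosphatase regulator, kept 16.2%, the invadopodia scaffold SH3PXD2A 21.8% and the ceramide kinase CERK 23.7%. SPSB4, a substrate adaptor for ubiquitin ligases, kept 20.7% and the kinase gene SIK1B 19.04%.

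Of the 3 glycan enzymes, 2 were among the 20 genes with the least left. B3GNT7, which adds N-acetylglucosamine to glycan chains (chr2:231395543-231401164), was 11.0, 9.30 and 9.47 CPM in Control and 0.506, 0.681 and 0.545 CPM in SOX2-KO, or 5.82% left. ST3GAL4, a sialyltransferase (chr11:126355640-126440344), was 72.1, 66.0 and 67.3 CPM in Control and 6.70, 7.02 and 6.29 CPM in SOX2-KO, or 9.75% left. ST6GALNAC4, another sialyltransferase, kept 24.98% and was the gene nearest to the limit on the inside, while ST3GAL6, at 25.4%, was 1 of the 3 genes nearest on the outside.

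Channels and transporters numbered 5. KCNG1, a modulatory subunit of voltage-gated potassium channels (chr20:51003656-51023129), was 8.19, 6.73 and 6.59 CPM in Control and 0.576, 0.555 and 0.759 CPM in SOX2-KO, or 8.78% left. SLC6A11, a transporter that clears the neurotransmitter GABA (chr3:10816200-10940733), was 5.96, 5.69 and 6.06 CPM in Control and 0.281, 0.547 and 0.913 CPM in SOX2-KO, or 9.83% left. MFSD6, a major facilitator superfamily protein (chr2:190408355-190509205), was 95.7, 96.4 and 100.3 CPM in Control and 18.7, 17.2 and 16.8 CPM in SOX2-KO, or 18.0% left. MFSD6 varied by only a few CPM within either group. The mitochondrial carrier genes SLC25A43 and SLC25A29 kept 18.8% and 21.2%.

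Of the cytoskeleton and membrane class, LASP1 and NEBL encode actin-binding proteins of the nebulin family. LASP1 (chr17:38869859-38921770) was 366, 346 and 344 CPM in Control and 81.6, 78.7 and 75.6 CPM in SOX2-KO, or 22.4% left. NEBL, whose product nebulette is known from heart muscle (chr10:20779973-21174187), was 135, 146 and 159.7 CPM in Control and 29.8, 35.4 and 34.5 CPM in SOX2-KO, or 22.6% left. The shares of these 2 genes were close, within the range of 20% to 25% that held 27 of the 75. ATL3, an atlastin that fuses tubules of the endoplasmic reticulum (chr11:63624087-63671921), was 64.5, 74.8 and 74.4 CPM in Control and 9.93, 12.1 and 10.6 CPM in SOX2-KO, or 15.3% left. TMCC3, a coiled-coil membrane protein of the endoplasmic reticulum (chr12:94567124-94650562), was 15.0, 13.6 and 15.9 CPM in Control and 1.44, 0.816 and 0.894 CPM in SOX2-KO, or 7.08% left. MYOF, a ferlin of membrane repair, kept 20.9%, and BVES, a Popeye-domain protein that binds cyclic AMP, 24.3%.

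Among the 12 others, LIX1 (chr5:97091867-97142872) was 9.08, 9.02 and 8.97 CPM in Control and 0.410, 0.820 and 1.01 CPM in SOX2-KO, or 8.28% left. MINDY1, a deubiquitinase, kept 12.6%, the metallopeptidase gene AMZ1 11.8%, the LIM-domain gene CRIP1 12.8%, the p53-inducible gene TP53I11 17.6% and the kelch gene KLHDC8B 22.5%. In DDAH2, which breaks down methylated arginines, the libraries differed. It was 9.43, 6.91 and 12.3 CPM in Control and 0.216, 0.193 and 4.43 CPM in SOX2-KO, so that SOX2-KO replicate 3 kept far more than the others and the lowest Control value was 1.56 times the highest SOX2-KO value, the narrowest gap of the 75. Without that library the log2 ratio of the DDAH2 means was -5.55, against -2.57 with it. PABPC1L, a cytoplasmic poly(A)-binding protein of oocytes, showed the same layout at 71.4, 61.0 and 63.7 CPM in Control and 10.3, 10.5 and 21.8 CPM in SOX2-KO, with a log2 ratio of -2.65 without SOX2-KO replicate 3 and -2.21 with it.

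For at least 5 of the 75 genes the identity is uncertain. Over 90% of the 31-base transcript words of these 5 occur in other GENCODE 29 genes, so reads could be divided between copies. Copies among the 939 identifiers outside GENCODE 29 could not be seen in this way. PHACTR1, whose values 1 such identifier repeats, shared 11.8% of its words. DDAH2, whose SOX2-KO libraries differed, shared 0.2565% of its words. Copies of DDAH2 outside GENCODE 29 could not be seen either, so its identity was not settled by this measure. HIST2H2AA3, a core histone gene (chr1:149842188-149842736), shares 100% with HIST2H2AA4 and was 8.97, 8.02 and 3.40 CPM in Control and 1.67, 0.00132 and 0 CPM in SOX2-KO. Its share of 8.18% left rests on SOX2-KO replicate 1, since the other SOX2-KO libraries lie below the 3-read floor. TMEM265 (chr16:30740381-30744281), of which 100% is shared with the gene AC106886.5, was 5.99, 7.04 and 8.15 CPM in Control and 0.253, 1.34 and 0.617 CPM in SOX2-KO, or 10.4% left, with a log2 ratio of -4.02 without SOX2-KO replicate 2 and -3.26 with it. SIK1B shares 96.3% with SIK1, NXF2B, an mRNA export gene, 91.3% with other genes, mostly NXF2, and the readthrough gene BORCS8-MEF2B 91.3% with MEF2B and BORCS8. NXF2B kept 21.8% and BORCS8-MEF2B 24.2%. HOXA11 shares 29.8% of its words with its antisense gene HOXA11-AS. No source used here states whether counting used the strand, so reads of overlapping antisense pairs cannot be told apart.

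At the limits of the rule the values ran on without a break. The 3 genes nearest to the ratio limit on the inside were ST6GALNAC4 (24.98%), GFRA1 (24.9%) and CDH6 (24.7%), and the 3 on the outside were ADGRG1, ZDHHC1 and ST3GAL6, at 25.3%, 25.3% and 25.4%. At the Control limit of 5 CPM, HEY2, OTX1 and CHRM5 lay inside with means of 5.02, 5.10 and 5.19 CPM. NPAS2, CSRNP3 and TCIM lay outside with 4.99, 4.87 and 4.68 CPM, and they met the ratio limit. A further 6 annotated genes of other types, COX6A1P2, ANKRD20A9P, TRHDE-AS1, AL109615.3, UBBP4 and TUFMP1, and 2 identifiers without annotation met the thresholds. The values of 1 of these identifiers were identical to those of PHACTR1, so they are not a separate measurement.

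Among replicates, the median coefficient of variation over the 75 genes was 7.28% in Control and 16.7% in SOX2-KO, where the levels were lower. SOX2-KO replicate 1 was the highest of its group for 33 genes, replicate 2 for 19 and replicate 3 for 23. In 2 genes, STAC and HIST2H2AA3, a SOX2-KO library fell below 3 reads. Over the 75 genes the median ratio of the lowest Control to the highest SOX2-KO value was 4.75. In Control, 31 genes were at 5 to 10 CPM, 28 at 10 to 50 CPM and 16 at 50 CPM or more.

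By position (GENCODE 29, GRCh38), the 75 genes were spread over 22 chromosomes, with none on chromosome 13 or Y. Chromosome 2 held 8 of them, or 1.12% of its 716 protein-coding genes at 5 CPM or more in Control, and chromosome 7 held 7 of 524 (1.34%). Over all chromosomes the share was 0.685%. Chromosome 19, the most gene-rich for its size, held 1 of 819 (0.122%), chromosome 8 1 of 382 (0.262%) and chromosome 21 2 of 106 (1.89%). The X chromosome held 3 of 389 (0.771%). With counts this small the shares are a description, and none was tested.

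The starts of all 75 genes are given here in Mb from the beginning of the chromosome (GRCh38), at the 5′ end of each gene on its own strand. Chromosome 1 carried EPHA2 at 16.2 Mb, TGFBR3 at 91.9, HIST2H2AA3 at 149.8, MINDY1 at 151.0, CD34 at 207.9 and SIPA1L2 at 232.6. Chromosome 2 held OTX1 at 63.1, MERTK at 111.9, TFCP2L1 at 121.3, RND3 at 150.5, GRB14 at 164.6, MFSD6 at 190.4, DOCK10 at 225.0 and B3GNT7 at 231.4. Chromosome 3 had SLC6A11 at 10.8, STAC at 36.4, KLHDC8B at 49.2 and SPSB4 at 141.1. Chromosome 5 held CDH6 at 31.2, NR2F1 at 93.6, RHOBTB3 at 95.7 and LIX1 at 97.1. Chromosome 6 had PHACTR1 at 12.7, DDAH2 at 31.7, BVES at 105.1, HEY2 at 125.7 and MYB at 135.2. Chromosome 7 carried AMZ1 at 2.7, AGR2 at 16.8, HOXA11 at 27.2, AUTS2 at 69.6, SEMA3E at 83.6, BHLHA15 at 98.2 and PTPRZ1 at 121.9. Chromosome 9 had RORB at 74.5, TLE1 at 81.7, ST6GALNAC4 at 127.9 and FIBCD1 at 130.9. Chromosome 10 carried NEBL at 21.2, MYOF at 93.5, SH3PXD2A at 103.9 and GFRA1 at 116.3. Chromosome 11 held TP53I11 at 45.0, ATL3 at 63.7, RCOR2 at 63.9, SESN3 at 95.2, ESAM at 124.8 and ST3GAL4 at 126.4. Chromosome 12 had TRHDE at 72.1, TMCC3 at 94.7 and MMP17 at 131.8. Chromosome 16 had RGS11 at 0.3, TMEM265 at 30.7 and TOX3 at 52.5. Chromosome 17 carried LASP1 at 38.9, PPP1R1B at 39.6 and HLF at 55.3. Chromosome 20 carried PAX1 at 21.7, PABPC1L at 44.9 and KCNG1 at 51.0. Chromosome X carried PTCHD1 at 23.3, NXF2B at 102.4 and SLC25A43 at 119.4. The chromosomes with fewer than 3 held ADGRL3 at 61.2 and UNC5C at 95.5 on chromosome 4, PREX2 at 68.0 on chromosome 8, SLC25A29 at 100.3 and CRIP1 at 105.5 on chromosome 14, CHRM5 at 34.0 and CEMIP at 80.8 on chromosome 15. The others were CBLN2 at 72.6 on chromosome 18, BORCS8-MEF2B at 19.2 on chromosome 19, SIK1B at 6.1 and COL6A2 at 46.1 on chromosome 21, CERK at 46.7 on chromosome 22.

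**Figure D3:**
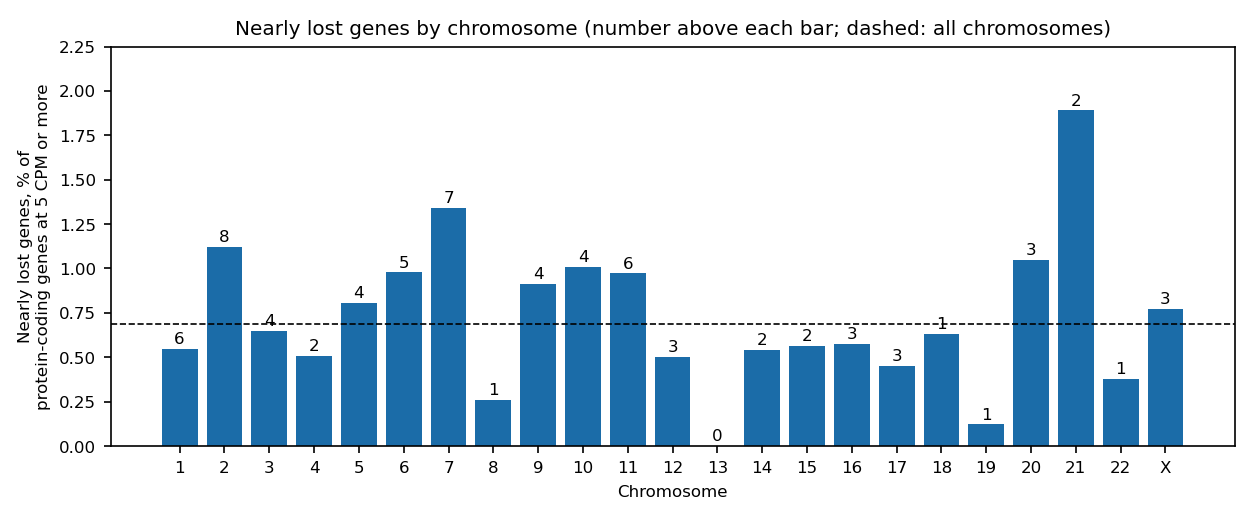
Nearly lost genes as a percentage of each chromosome's protein-coding genes with a Control mean of at least 5 CPM, with the number of genes above each bar and the share over all chromosomes, 0.685%, dashed. Chromosome 2 has 8 genes and chromosome 7 has 7, while chromosomes 8, 18, 19 and 22 have 1 each and chromosome 13 has 0.

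Most of the lost genes lay far from one another. Only 2 pairs had starts within 1 Mb. RCOR2 and ATL3 lay 0.245 Mb apart on chromosome 11, with 15.9% and 15.3% left. MARK2, a kinase gene named after its values were seen, starts 77.9 kb from RCOR2 and went from 113 ± 2.06 to 113 ± 3.92 CPM (log2 fold change 0.00, adjusted p = 0.996). LASP1 and PPP1R1B lay 0.757 Mb apart on chromosome 17, with 22.4% and 9.22% left. Between 1 and 3 Mb apart were MINDY1 and HIST2H2AA3 on chromosome 1 (1.17 Mb), LIX1 and RHOBTB3 on chromosome 5 (1.43 Mb), RHOBTB3 and NR2F1 (2.13 Mb) and ST3GAL4 and ESAM on chromosome 11 (1.59 Mb).

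The lost genes spanned more of the genome than the background. Their median span from start to end was 65.4 kb, against 34.1 kb for the 10943 genes at 5 CPM or more, and 27 of 75 (36%) spanned at least 100 kb, against 19.7%. The exonic length was alike, with medians of 5.44 kb and 5.32 kb. Span and exonic length are those of the annotation and were not tested.

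Whether other genes around the 75 moved with them was read from limma on log2(CPM + 1), fitted to the 15927 genes that averaged 1 CPM or more over all libraries and called at a Benjamini-Hochberg adjusted p under 0.05. Over all genes tested, 57.8% were called, 32.9% lower and 25.0% higher in SOX2-KO. Of 1097 other tested genes with a start within 1 Mb of a lost gene, 404 were lower (36.8%) and 224 higher (20.4%), with a median log2 fold change of -0.12 against -0.06 over all genes. Elsewhere on the chromosomes 33.0% were lower and 25.6% higher. Of the 153 genes within 0.1 Mb, 62 were lower (40.5%) and 25 higher (16.3%). The 1097 include antisense genes and near-copies of lost genes, such as HOXA11-AS and HIST2H2AA4. They also include TRHDE-AS1 and ARMCX3, which met the thresholds of the rule but were not among the 75. A fall of at least 2-fold on this scale was found for 43 neighbours (3.92%), against 3.33% of all genes tested. Median-ratio scaling gave 340 lower and 263 higher neighbours, and 28.3% lower and 28.7% higher over all genes. Quantile normalisation gave 334 and 266, and 28.2% and 29.3% over all genes, so that more neighbours were lower than higher under both scalings and the reverse held for all genes. These shares were not tested against each other.

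**Figure D4:**
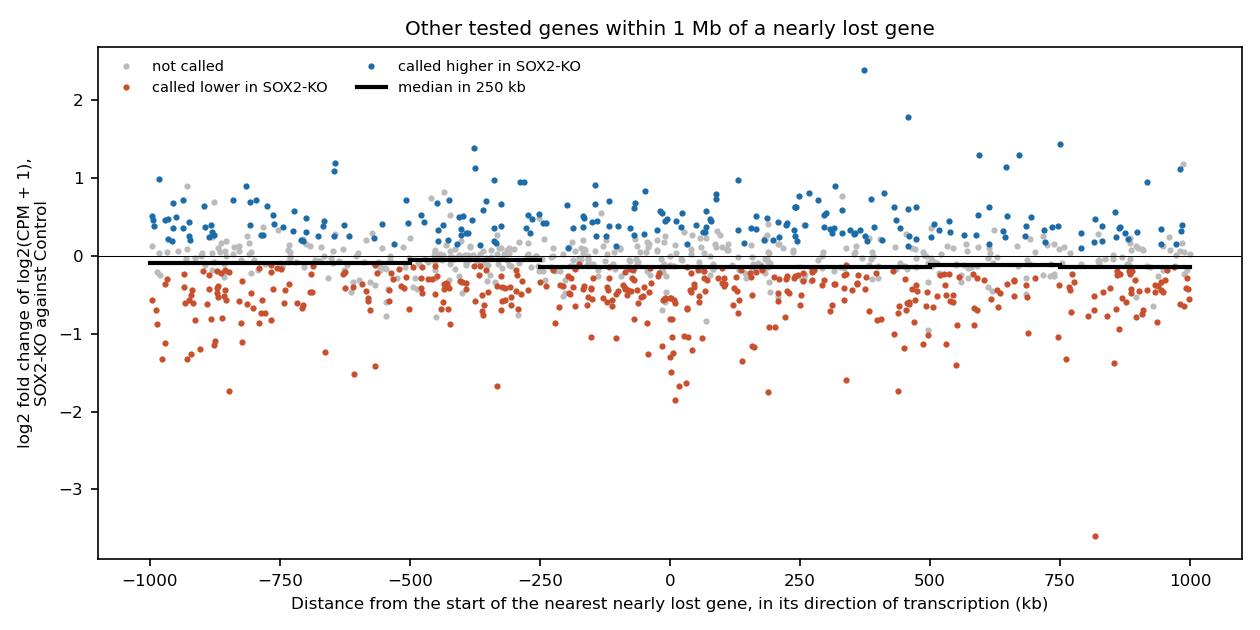
Log2 fold change of log2(CPM + 1), SOX2-KO against Control, for the 1097 other tested genes within 1 Mb of a nearly lost gene, by distance in kb from the start of the nearest of the 75 in its direction of transcription. Red points are lower and blue points higher at adjusted p under 0.05 (404 and 224), grey points are not called, and the black lines, medians in steps of 250 kb, stay slightly below 0 throughout.

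The nearest tested protein-coding gene on either side of each lost gene was also read, where it lay within 1 Mb. Of 127 such genes that were not among the 75, 60 were lower (47.2%) and 26 higher (20.5%), with a median log2 fold change of -0.17, and 9 were lower by at least 2-fold. Over all protein-coding genes tested, the 75 included, 36.1% were lower and 27.0% higher, and over those within 1 Mb, without the 75, 39.8% and 21.7%. Near-copies of lost genes, and other genes that share sequence with them, are counted among the 127. HIST2H2AA4 (log2 fold change -0.54, adjusted p = 0.17), NXF2 (-0.47, adjusted p = 0.543) and MEF2B (-0.04, adjusted p = 0.845) were not called. AC106886.5, which shares 100% of the words of TMEM265, was called lower (-0.34, adjusted p = 0.0184). Untested genes can lie between a gene of the 127 and its lost gene, and the difference in shares was not tested. The 127 were read at the deposited CPM only, not under the other scalings. In 68 windows with at least 3 tested neighbours, the window median was below that of all genes tested in 44 and at or above it in 24. It was -0.5 or lower in 3 windows, those of GRB14 (-0.67), CD34 (-0.64) and PREX2 (-0.62), and 0.5 or higher in none. The windows of FIBCD1, with 12 of 14 neighbours lower, and of AMZ1, with 11 of 13 higher, were chosen after their values were seen. CBLN2, ADGRL3, AUTS2 and TLE1 had no tested neighbour.

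The neighbours with the smallest p in each direction were spread over 4 chromosomes. ARFGEF1, an exchange factor for ARF GTPases 608 kb from PREX2, fell from 401 ± 7.68 to 139 ± 4.62 CPM (log2 fold change -1.52, adjusted p = 2.37e-08). SDC4, a heparan sulfate proteoglycan 438 kb from PABPC1L, fell from 62.9 ± 2.20 to 18.2 ± 0.825 CPM (log2 fold change -1.73, adjusted p = 9.95e-08). HLA-C, which presents peptides to T cells and lies 458.5 kb from DDAH2, rose from 19.4 ± 1.29 to 69.3 ± 0.342 CPM (log2 fold change 1.79, adjusted p = 9.95e-08). Sequence that HLA-C shares with other genes was not measured. TSPAN8, a tetraspanin gene near TRHDE, rose from 43.9 ± 0.983 to 94.8 ± 4.10 CPM (log2 fold change 1.09, adjusted p = 4.00e-07).

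Several neighbours are related to the lost gene itself, and those in this paragraph other than HOXA9, HOXA10 and COL6A1 were named after their values were seen. In the HOXA cluster on chromosome 7, HOXA9 fell from 83.0 ± 6.39 to 22.2 ± 1.19 CPM (log2 fold change -1.86, adjusted p = 1.83e-07) and HOXA10 from 61.0 ± 3.24 to 25.3 ± 2.62 CPM (log2 fold change -1.24, adjusted p = 2.96e-06). HOXA13, on the other side of HOXA11, fell from 13.6 ± 0.406 to 5.57 ± 0.709 CPM. The cluster thus fell on both sides of HOXA11, though each of these 3 kept a larger share than HOXA11 did. The antisense genes HOXA11-AS (1.92 ± 0.363 to 0.185 ± 0.141 CPM) and HOXA10-AS (28.8 ± 0.979 to 8.51 ± 1.83 CPM) were also lower. NR2F1-AS1, which starts 2.42 kb from NR2F1, fell from 20.7 ± 1.00 to 6.74 ± 0.316 CPM (log2 fold change -1.49, adjusted p = 1.26e-06), and TRHDE-AS1 from 5.23 ± 0.346 to 0.853 ± 0.145 CPM. POPDC3, the Popeye-domain gene 42.8 kb from BVES, fell from 3.78 ± 0.282 to 1.03 ± 0.411 CPM (log2 fold change -1.26, adjusted p = 1.77e-04). COL6A1, whose product joins that of COL6A2 in collagen VI and which lies 116 kb away, rose from 32.7 ± 2.53 to 54.1 ± 1.44 CPM (log2 fold change 0.71, adjusted p = 1.72e-05). On chromosome 17, the growth factor receptor gene ERBB2 starts 61.2 kb from PPP1R1B and fell from 259 ± 11.4 to 124 ± 3.63 CPM (log2 fold change -1.06, adjusted p = 3.55e-07), while STARD3, which lies between them, went from 24.0 ± 1.99 to 26.5 ± 0.584 CPM (log2 fold change 0.14, adjusted p = 0.121).

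Families were formed from tested protein-coding genes that share the letters of a lost gene's symbol before its first digit. In 18 families with at least 4 such genes, 623 other members were tested, of which 220 were lower (35.3%) and 163 higher (26.2%), with a median log2 fold change of -0.05. As a whole the families were thus close to all protein-coding genes tested, at 36.1% lower and 27.0% higher. Median-ratio scaling gave 194 lower and 189 higher and quantile normalisation 193 and 191, an almost even split. All genes tested were split alike, with 28.3% lower and 28.7% higher, and 28.2% and 29.3%. The HOXA genes had 7 of 9 lower and 0 higher. TLE genes were lower in 4 of 4, and in 3 of 4 with quantile normalisation. TLE3 fell from 195 ± 8.02 to 108 ± 8.19 CPM (log2 fold change -0.85, adjusted p = 4.84e-06) and TLE2 from 32.1 ± 2.96 to 14.6 ± 0.972 CPM. Of 7 other EPHA receptors 5 were lower and 1 higher. EPHA3 fell from 60.2 ± 3.60 to 21.3 ± 1.19 CPM (log2 fold change -1.45, adjusted p = 4.51e-07) and EPHA5 from 12.4 ± 0.318 to 5.02 ± 0.280 CPM, while EPHA1 rose from 6.59 ± 0.809 to 12.1 ± 1.26 CPM (log2 fold change 0.79, adjusted p = 3.69e-04). These 3 families were the ones with the lowest medians, at -1.04, -0.97 and -0.81.

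Histone genes were lower in 20 of 37 and higher in 5, and PAX genes lower in 3 of 4. Of 6 genes with the root MMP 3 were lower. The 1 higher, MMP24OS, is named for lying opposite a metalloproteinase gene, and its call was lost without Control replicate 3 or SOX2-KO replicate 2. The symbol root COL gave 8 lower and 2 higher of 17, 8 and 5 with median-ratio scaling, and 4 higher without SOX2-KO replicate 1. Cadherins of the CDH root had 4 lower and 2 higher of 7, with 1 higher when any Control library or SOX2-KO replicate 1 was left out. DOCK genes had 5 lower and 4 higher of 9. SEMA genes had 5 lower and 7 higher of 17. SEMA3D, on the chromosome of SEMA3E, fell from 103 ± 4.54 to 39.6 ± 2.51 CPM (log2 fold change -1.36, adjusted p = 3.55e-07), while SEMA6D rose from 2.16 ± 0.373 to 14.2 ± 1.09 CPM (log2 fold change 2.27, adjusted p = 1.22e-06). The large roots mix unrelated proteins, with 23 lower and 11 higher of 58 for PPP, 71 and 68 of 225 for SLC, and 52 and 52 of 175 for TMEM. With median-ratio scaling the SLC root turned to 57 lower and 78 higher, while all genes tested turned to 28.3% lower and 28.7% higher. UNC genes had 4 lower and 3 higher of 11, MFSD genes 3 and 3 of 15, RGS genes 1 and 2 of 10, KLHDC genes 2 and 2 of 7, and BORCS genes 0 and 0 of 5. In these small counts 1 library could decide a call: 5 MFSD genes were lower without Control replicate 3, 2 RGS genes were lower without SOX2-KO replicate 2, and 1 KLHDC gene was higher when replicate 1 or 3 of Control, or replicate 2 or 3 of SOX2-KO, was left out. With quantile normalisation 5 MFSD genes were higher.

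Gene lists gave a like picture. Without the 75, 224 genes of 13 lists were tested, 6 of them the marker lists, of which 84 were lower (37.5%) and 59 higher (26.3%), with a median of -0.11. These shares lay near the 36.1% lower and 27.0% higher of all protein-coding genes tested. Median-ratio scaling gave 75 lower and 71 higher of the list genes and quantile normalisation 72 and 73, so the excess of lower calls was not kept. It was not kept over all genes tested either, with 28.3% lower and 28.7% higher, and 28.2% and 29.3%. Besides the lost genes UNC5C and SEMA3E, 16 of 39 axon guidance genes were lower and 10 higher. Besides OTX1, 25 of 62 homeobox genes outside the HOX clusters were lower and 8 higher, and 20 and 13 with quantile normalisation. LHX9 fell from 10.2 ± 0.650 to 2.79 ± 0.114 CPM (log2 fold change -1.56, adjusted p = 3.19e-06), while CUX2 rose from 23.9 ± 1.85 to 46.3 ± 1.62 CPM (log2 fold change 0.93, adjusted p = 6.13e-06). Homeobox genes therefore moved in both directions.

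Voltage-gated ion channels had 11 lower and 3 higher of 26. KCNQ5 fell from 44.1 ± 1.32 to 27.1 ± 1.46 CPM (log2 fold change -0.68, adjusted p = 1.41e-05) and KCNH2 from 30.4 ± 4.40 to 13.3 ± 0.338 CPM, while SCN8A rose from 1.48 ± 0.194 to 3.96 ± 0.480 CPM. Synaptic and neuronal adhesion genes had 10 lower and 6 higher of 28, and 8 and 8 with quantile normalisation. Imprinted genes had 13 lower and 9 higher of 30. The list of cancer-testis antigens leaned the other way, with 4 lower and 8 higher of 17. SSX2IP, among the 4 lower, is named as a partner of SSX2 rather than as such an antigen. The BEX and TCEAL genes of the X chromosome also leaned to higher, with 2 lower and 9 higher of 12. Of 9 luminal markers 6 were higher and 1 lower, with 0 lower under median-ratio scaling and when replicate 1 or 3 of Control, or replicate 3 of SOX2-KO, was left out. SYP and both measured stromal markers were lower and VWF higher. The part of any other cell type in the levels of the 75 genes was not tested.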

How the data were processed

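RNA-seq libraries of CWR-R1 cells, 3 Control and 3 SOX2-KO by sample title, were read from 1 table of CPM values for 16949 Ensembl identifiers. The authors' deposited CPM columns each add up to 1000000. For tools, the submitters' processing notes list kallisto 0.43.1, Trimmomatic 0.38, STAR, edgeR 3.22.2, CASAVA 1.8, Picard, FastQC and SAMtools, and for builds hg38 and GRCh38.p12, without roles. From 26.6% to 28.3% of values per library were whole multiples of 1 read within 0.001 of a read (0.2% by chance), so the table does not give whole reads back and count models were not applied. Depths are estimates from that step. GENCODE 29 gave type and position for 16010 identifiers, of which 13386 are protein-coding. The other 939 identifiers were tested without position and could not be members.

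limma 3.58.1 in R 4.3.3 with a trended prior and group as the only term gave log2 fold changes on log2(CPM + 1), which understates low genes. Shares left are ratios of mean CPM. The fit was also run on simulated data with a set spread that was not estimated from these libraries. The outcome is not given here and does not vouch for single calls. Other values used Python 3.11.15, pandas 2.3.3, numpy 2.4.6 and scipy 1.17.1, and plots matplotlib 3.10.9. Shared sequence was measured as 31-base words of GENCODE 29 transcripts. Genes with values in every library were the 20 with the lowest share left, the 6 with the highest Control mean and those within 1 Mb of another. Neighbours, families and lists are named for up to 2 genes with the smallest p per direction, and the others as stated, and some genes that this rule names are not reported here. DDAH2 and PABPC1L were given by library after their values were seen. The members and lists were chosen with earlier results of these data known. Alternatives were pseudocounts, filters, scalings, thresholds of the rule, windows, a replicate block and each library left out. No explanation was tested.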

Additional observations from a re-analysis of the deposited data

How the results depend on the processing

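Of 105 alternative values for 10 main results, 99 were rated the same, and the other 6 follow from their construction. For counts, the same means within 1.5 times the main count, with lower and higher calls judged apart. For SOX2 it means lower at an adjusted p under 0.05 by limma. The balance of lower to higher calls was not part of this rating, and under both scalings it turned for the whole table. With Control of at least 10 CPM the rule gave 44 genes and with a ratio of at most 0.2 it gave 48, against 75. Windows of 0.5 Mb and 2 Mb gave 233 and 661 neighbours lower and 128 and 447 higher, against 404 and 224. Leaving out 1 library gave 72 to 80 genes meeting the rule, 4606 to 5169 genes lower and 3515 to 3880 higher over the whole table, and 348 to 407 neighbours lower. Among all genes tested 5234 were lower and 3976 higher, but 4507 and 4575 with median-ratio scaling and 4498 and 4670 with quantile normalisation, which moved the median of all genes by 0.056 and 0.067 (log2). The rule gave 66 and 64 genes under these scalings and 54 with a pseudocount of 1. Replicate numbers did not pair the libraries: the correlations of deviations were -0.0446, 0.0383 and -0.0135 for equal numbers and ranged from -0.0666 to 0.0823 over all 9 pairs, so not every library was closest to its own number. With the replicate block 4952 genes were lower and 3775 higher. No alternative reversed a log2 ratio of the 75 genes, but a pseudocount of 1 moved 62 of the 75 by more than the spread between replicates. STAC went from -6.03 to -2.93 and was then no longer the gene with the lowest ratio, which was RORB at -3.26. Depth limits STAC and HIST2H2AA3, whose SOX2-KO libraries reach down to below 3 reads.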
